A study of Mus musculus with 4 samples.

Results

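Retinoic acid is made from retinol, acts through nuclear receptors and is removed by oxidation, and the genes described here stand at each of these steps. They are *Rdh10* and *Aldh1a2* (synthesis), *Dhrs3* (reversal of a synthesis step), *Cyp26a1* (breakdown), *Stra6*, *Crabp1* and *Crabp2* (uptake and binding), and *Rarb* and *Rarg* (receptors). They were chosen by gene symbol as retinoid enzymes, binding proteins, receptors and targets, and all 9 were found among the 24347 gene rows of the expression files. The values come from RNA-seq of day 3 embryoid bodies (EBs), floating clusters of differentiating mouse embryonic stem cells (mESCs). WT EBs were compared with EBs of promoter KO cells, in which the promoter of *Gm11549*, the gene that encodes the micropeptide NEMEP, had been deleted with CRISPR/Cas9. There were 2 samples of each genotype, named here WT 1, WT 2, promoter KO 1 and promoter KO 2.

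Both genotypes are mESCs of strain 129/Ola, for which the methods name the line E14Tg2a.IV. Their EBs grew in medium with 15% serum and without LIF, the cytokine that holds mESCs undifferentiated, and the labels list no other treatment. The dishes were bacterial plates by the labels and dishes of very low attachment by the methods. The promoter KO lines were grown from single sorted cells, and the sources used here do not tie the promoter KO samples to particular clones. Nothing in the labels says that the samples of a genotype came from separate cultures, although the study's legend calls them biologically independent. The p-values therefore measure the spread between these samples.

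Retinol enters cells through STRA6 and is oxidized to retinaldehyde by RDH10, a step that DHRS3 runs in reverse. ALDH1A2 then oxidizes retinaldehyde to retinoic acid, which the CRABP proteins carry in the cytoplasm and which enzymes of the CYP26 family oxidize further for removal. Retinoic acid binds the receptors RARA, RARB and RARG, which pair with RXR proteins on DNA, and *Cyp26a1*, *Rarb*, *Stra6*, *Dhrs3* and *Crabp2* are themselves known to be induced by it. In the gastrulating mouse embryo *Cyp26a1* is expressed around the primitive streak and in newly formed mesoderm.

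Expression is given in FPKM, which scales fragment numbers to the length of the transcript and the size of the library. The files name no unit, and the methods speak of RPKM. Judged from the lowest values, sequencing yielded about 25100000 fragments for WT 1 and 22500000 for WT 2, with promoter KO 1 near 22100000 and promoter KO 2 near 20400000. The targeted gene *Gm11549* had 0.750 FPKM in WT 1 and 0.522 FPKM in WT 2, with promoter KO 1 at 0 and promoter KO 2 at 0.0659 FPKM. The promoter KO samples were thus the lower ones, as their labels have it. Differences were tested with limma on log2(FPKM + 1) over the 11941 genes with 1 FPKM or more in at least 2 samples. Fold changes below are on that scale, which understates the change of low genes. An exact permutation test of 2 samples against 2 cannot give a two-sided p below 0.333 for a single gene, so that the tests lean on limma's pooling of variance over all genes.

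Of the 9 genes, 6 passed the filter and were tested, and *Aldh1a2*, *Rarb* and *Stra6* were not. At a Benjamini-Hochberg adjusted p under 0.05 in limma, 0 of the 6 genes were called lower in promoter KO and 0 higher, against 1.89% of all tested genes lower and 1.68% higher. At an unadjusted p under 0.05, 2 were lower (*Cyp26a1* and *Dhrs3*) and 2 were higher (*Rarg* and *Rdh10*), against 15.6% and 15.0% of all tested genes. The study's volcano plot asks for a fold change outside 0.5 to 2 and a p under 0.05, and its legend does not say whether that p is adjusted. At these thresholds with the unadjusted p, *Cyp26a1* was lower, as were 1.63% of tested genes, and none of the 6 was higher, as were 1.40%. The promoter KO samples were both below the WT samples in 2 of the 6 genes and both above them in 3, and this occurred in 32.4% and 32.9% of all tested genes. The counts of the 6 genes are too small to be set against these shares.

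**Figure D1:**
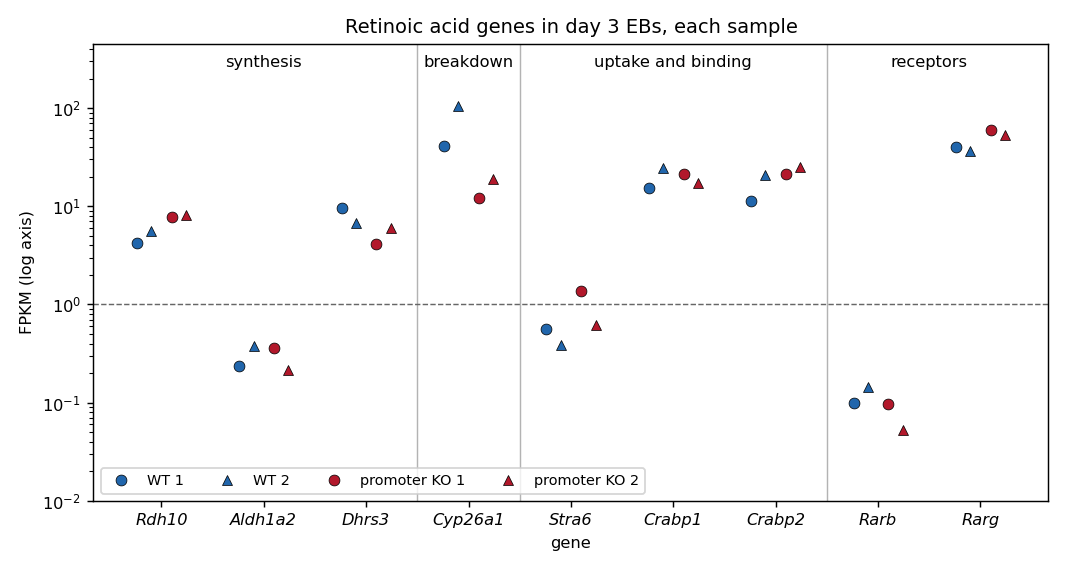
FPKM (log axis) of the 9 genes in each of the 4 samples, ordered by role, with WT in blue and promoter KO in red, and the filter of 1 FPKM as a dashed line. *Dhrs3*, whose product acts in reverse, is grouped with the synthesis genes. *Cyp26a1* lay at 41.1 and 105 FPKM in WT and at 12.2 and 18.8 FPKM in promoter KO, and *Aldh1a2* and *Rarb* lay below 1 FPKM in every sample.

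*Cyp26a1*, the gene of the enzyme that oxidizes retinoic acid, was the most abundant of the 9 genes in both WT samples and had the largest difference between the genotypes. It had 41.1 FPKM in WT 1 and 105 FPKM in WT 2, with promoter KO 1 at 12.2 and promoter KO 2 at 18.8 FPKM. Every promoter KO value was below every WT value, and the WT samples differed from each other by more than the promoter KO samples did. The mean was 73.2 ± 45.4 FPKM in WT against 15.5 ± 4.69 FPKM in promoter KO samples (SD, n = 2 each), so that promoter KO was at 21.2% of WT. The log2 fold change was −2.05 (standard error 0.43, 95% confidence interval −3.10 to −0.995), the 22nd lowest of the 11941 tested genes. Its adjusted p was 0.0575 in limma with Benjamini-Hochberg adjustment, just short of the threshold, and the unadjusted p was 0.00315. Over the alternative settings the adjusted p in limma with Benjamini-Hochberg adjustment ranged from 0.00920 to 0.249. WT 2 and WT 1 each set the size of the difference, since the log2 fold change was −1.38 without WT 2 (adjusted p = 0.197, limma with Benjamini-Hochberg adjustment) and −2.72 without WT 1 (adjusted p = 0.0330). In these fits the lone WT sample is taken to vary like the promoter KO samples.

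*Cyp26a1* lies on chromosome 19 from 37697798 to 37701536 on the plus strand in GENCODE (GRCm38), and its promoter is shown because it holds a pair of the short sites that RAR and RXR proteins are known to bind. The window from RefSeq (GRCm38.p6) runs from 250 bases before the RefSeq transcription start to 50 bases after it, on the plus strand, at chr19:37697558-37697857. That start lies a few bases downstream of the GENCODE one.
*Cyp26a1* promoter: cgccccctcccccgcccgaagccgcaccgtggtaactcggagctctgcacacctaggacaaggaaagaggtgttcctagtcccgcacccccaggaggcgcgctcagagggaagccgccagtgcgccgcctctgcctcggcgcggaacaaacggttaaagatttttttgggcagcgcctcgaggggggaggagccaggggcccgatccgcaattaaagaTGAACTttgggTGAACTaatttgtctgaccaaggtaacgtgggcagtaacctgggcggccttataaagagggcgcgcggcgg
Capitals mark the repeat, in which a pair of 6-base sites is separated by 5 bases, the spacing known from retinoic acid response elements. On the opposite strand it reads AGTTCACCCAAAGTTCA and lies from 32 to 16 bases before the RefSeq start, at 37697776 to 37697792. The sites searched, on both strands and as direct repeats, read A or G, then G, then G or T, then TCA. A direct repeat with 5 bases between the sites occurred in 32 of 32851 promoter windows of the same length (0.0974%), with 1 base in 73 (0.222%) and with 2 bases in 88 (0.268%). Of the 9 genes, 7 have windows in this table, 13 in all, and *Crabp2* and *Rdh10* are not among them. Besides *Cyp26a1*, the *Rarb* promoter was the only one of the 7 genes to hold such a repeat. It is shown for comparison with *Cyp26a1*, in the direction of the gene on the minus strand, at chr14:16575427-16575726.
*Rarb* promoter: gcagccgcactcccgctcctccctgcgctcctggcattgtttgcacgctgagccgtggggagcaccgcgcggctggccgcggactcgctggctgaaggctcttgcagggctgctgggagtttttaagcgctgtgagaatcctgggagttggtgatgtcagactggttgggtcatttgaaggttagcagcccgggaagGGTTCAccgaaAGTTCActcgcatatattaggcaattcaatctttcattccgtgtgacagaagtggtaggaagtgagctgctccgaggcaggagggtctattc
Here the repeat reads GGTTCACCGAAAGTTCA on the strand of the gene, from 53 to 37 bases before the RefSeq start, at 16575513 to 16575529. A match of these letters is a description of the window, and binding was not measured. The genes that share this kind of repeat differed in level, with *Cyp26a1* at 12.2 to 105 FPKM and *Rarb* at 0.0522 to 0.144 FPKM over the 4 samples.

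The other enzymes of the family were far below *Cyp26a1*, which made up between 98.3% and 99.1% of the summed FPKM of *Cyp26a1*, *Cyp26b1* and *Cyp26c1* in each sample. *Cyp26c1*, the more abundant of the remaining pair, had 0.632 FPKM in WT 1 and 0.845 FPKM in WT 2, with promoter KO 1 at 0.103 and promoter KO 2 at 0.149 FPKM. Its values were low in both promoter KO samples, as those of *Cyp26a1* were, and correspond to about 24.0, 28.7, 3.43 and 4.57 fragments at the estimated depths. It was below the filter, and in limma without the filter its log2 fold change was −0.62 (adjusted p = 0.142, Benjamini-Hochberg). *Cyp26b1* ranged from 0.0327 to 0.101 FPKM, and its samples overlapped. *Cyp26c1* is the nearest neighbour of *Cyp26a1*, ending 4399 bases before it. The other protein-coding genes with a row in the files within 200000 bases, looked at after the values were seen, showed other patterns. *Exoc6*, on the far side of *Cyp26c1*, was at 6.86 and 6.68 FPKM in WT and at 7.08 and 6.61 FPKM in promoter KO. *Myof* was at 0.536 and 0.837 FPKM in WT and at 2.46 and 1.84 FPKM in promoter KO.

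The genes with profiles most like that of *Cyp26a1*, by the Euclidean distance between mean-centred log2(FPKM + 1) values over the 4 samples, were *Chst7* (distance 0.17), *Cfc1* (0.25) and *Six2* (0.33). *Chst7*, which encodes a carbohydrate sulfotransferase, was at 12.7 and 33.2 FPKM in WT and at 3.87 and 5.32 FPKM in promoter KO. *Cfc1*, which encodes the Nodal coreceptor Cryptic, was at 4.17 and 13.8 FPKM in WT and at 0.569 and 1.18 FPKM in promoter KO. The homeobox gene *Six2* was at 7.26 and 15.3 FPKM in WT and at 0.921 and 2.17 FPKM in promoter KO. In all of them WT 2 was the highest sample and promoter KO 1 the lowest, as in *Cyp26a1*. They were picked for profiles close to that of *Cyp26a1* in these same samples, so the shared order carries no further information.

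The genes of the reversible step between retinol and retinaldehyde showed opposite patterns. *Rdh10*, the retinol dehydrogenase, had 4.21 FPKM in WT 1 and 5.54 FPKM in WT 2, with promoter KO 1 at 7.73 and promoter KO 2 at 8.10 FPKM. Both promoter KO values were above both WT values, with means of 4.87 ± 0.938 FPKM in WT against 7.91 ± 0.263 FPKM in promoter KO samples (SD, n = 2 each). The log2 fold change was 0.61 (standard error 0.16, 95% confidence interval 0.23 to 0.99, adjusted p = 0.0735, limma with Benjamini-Hochberg adjustment). *Dhrs3*, which encodes the reductase that returns retinaldehyde to retinol, had 9.50 FPKM in WT 1 and 6.72 FPKM in WT 2, with promoter KO 1 at 4.09 and promoter KO 2 at 5.97 FPKM. Both promoter KO values were below both WT values, although promoter KO 2 was close to WT 2. The means were 8.11 ± 1.97 FPKM in WT against 5.03 ± 1.33 FPKM in promoter KO samples (SD, n = 2 each), and the log2 fold change was −0.60 with a standard error of 0.22 and a 95% confidence interval of −1.14 to −0.06. The adjusted p of *Dhrs3* in limma with Benjamini-Hochberg adjustment was 0.139, and neither gene passed 0.05 under any of the 12 alternative fits. The ratio of *Rdh10* to *Dhrs3* FPKM, formed after the values were seen and not tested, was 0.443 in WT 1 and 0.824 in WT 2, with promoter KO 1 at 1.89 and promoter KO 2 at 1.36. *Dhrs3* was thus the more abundant of the pair in both WT samples and *Rdh10* in both promoter KO samples.

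*Aldh1a2*, which encodes the dehydrogenase that makes most retinoic acid in the early embryo, was low in all 4 samples. It had 0.235 FPKM in WT 1 and 0.375 FPKM in WT 2, with promoter KO 1 at 0.358 and promoter KO 2 at 0.217 FPKM, and the genotypes overlapped. These values correspond to about 12.0, 17.1, 16.0 and 8.96 fragments, so that small differences were not detectable at this depth. The related *Aldh1a1* and *Aldh1a3* were low as well, and the summed FPKM of *Aldh1a1*, *Aldh1a2* and *Aldh1a3* was 0.273 in WT 1 and 0.644 in WT 2, with promoter KO 1 at 0.465 and promoter KO 2 at 0.439. *Aldh1a2* made up 49.5% to 86.2% of this sum, with its lowest share in promoter KO 2, where *Aldh1a1* held 43.5%. In WT, *Cyp26a1* was at 175 and 281 times the FPKM of *Aldh1a2*, and in promoter KO at 34.0 and 86.6 times, a ratio also formed after the values were seen and not tested.

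The genes most like *Rdh10*, by the same distance over the 4 samples, were *Lrpap1* (0.05), *Plaur* (0.09) and *Id2* (0.09). *Lrpap1*, which encodes a chaperone of receptors of the LDL receptor family, was at 22.8 and 30.2 FPKM in WT and at 39.9 and 41.3 FPKM in promoter KO. *Plaur*, the urokinase receptor gene, was at 7.20 and 9.58 FPKM in WT and at 13.3 and 14.6 FPKM in promoter KO. *Id2*, which encodes an inhibitor of basic helix-loop-helix factors, was at 11.9 and 14.2 FPKM in WT and at 18.9 and 20.2 FPKM in promoter KO.

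Among the genes of uptake and binding, none of those tested passed an unadjusted p of 0.05. *Crabp1*, whose product binds retinoic acid in the cytoplasm, had 15.4 FPKM in WT 1 and 24.6 FPKM in WT 2, with promoter KO 1 at 21.4 and promoter KO 2 at 17.2 FPKM. The WT samples enclosed the promoter KO samples, and the log2 fold change was −0.02 with a 95% confidence interval of −0.58 to 0.54 (adjusted p = 0.964, limma with Benjamini-Hochberg adjustment). Its sign turned with the scaling, and the log2 fold change was 0.01 after centring on each sample's median. *Crabp2*, whose product passes retinoic acid to the receptors, had 11.4 FPKM in WT 1 and 21.1 FPKM in WT 2, with promoter KO 1 at 21.1 and promoter KO 2 at 25.2 FPKM. WT 1 was the low sample, and WT 2 and promoter KO 1 were nearly equal. The means were 16.2 ± 6.83 FPKM in WT against 23.1 ± 2.84 FPKM in promoter KO samples (SD, n = 2 each). The log2 fold change of *Crabp2* was 0.54 (standard error 0.27, 95% confidence interval −0.11 to 1.20, adjusted p = 0.227, limma with Benjamini-Hochberg adjustment), and without WT 1 it was 0.13 (adjusted p = 0.643, with 0.0927 to 0.643 over the alternative settings). The share of *Crabp1* in the summed FPKM of the pair was 57.4% in WT 1 and 53.9% in WT 2, with promoter KO 1 at 50.4% and promoter KO 2 at 40.6%.

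*Stra6*, the gene of the membrane receptor for retinol-binding protein, had 0.568 FPKM in WT 1 and 0.389 FPKM in WT 2, with promoter KO 1 at 1.38 and promoter KO 2 at 0.617 FPKM. Promoter KO 1 stood above the rest, promoter KO 2 was close to WT 1, and 1 sample reached 1 FPKM, so that the gene was not tested. At the length of its longest transcript the values correspond to about 40.5, 24.8, 86.3 and 35.7 fragments. In limma without the filter the log2 fold change was 0.41 (adjusted p = 0.329, Benjamini-Hochberg). *Stra6* overlaps *Ccdc33* on the other strand, and its values are uncertain because the sources used here do not say whether counting was by strand.

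*Rarg* was the most abundant of the 9 genes in both promoter KO samples. This receptor gene had 40.3 FPKM in WT 1 and 36.2 FPKM in WT 2, with promoter KO 1 at 60.4 and promoter KO 2 at 53.3 FPKM. Both promoter KO values were above both WT values, and the gap between the genotypes was wider than the gaps within them. The means were 38.3 ± 2.88 FPKM in WT against 56.9 ± 5.01 FPKM in promoter KO samples (SD, n = 2 each), a ratio of 1.49. The log2 fold change was 0.56 (standard error 0.11, 95% confidence interval 0.30 to 0.82), and the adjusted p was 0.0502 in limma with Benjamini-Hochberg adjustment, almost at the threshold. Over the alternative settings the adjusted p in limma with Benjamini-Hochberg adjustment ranged from 0.0257 to 0.247, and with robust variance estimates *Rarg* was called higher (adjusted p = 0.0472). *Rarb* had 0.0992 FPKM in WT 1 and 0.144 FPKM in WT 2, with promoter KO 1 at 0.0969 and promoter KO 2 at 0.0522 FPKM, about 7.16, 9.27, 6.14 and 3.05 fragments. These values are near the limit of detection, and *Rarb* overlaps *Top2b* on the other strand. *Rara*, the remaining receptor gene of the family, was at 18.1 and 16.4 FPKM in WT and at 24.7 and 22.3 FPKM in promoter KO, with a log2 fold change of 0.42 (limma with Benjamini-Hochberg adjustment, adjusted p = 0.0743, standard error 0.11). The summed FPKM of the 3 receptor genes was 58.5 in WT 1 and 52.8 in WT 2, with promoter KO 1 at 85.2 and promoter KO 2 at 75.7. Within it the share of *Rarg* was 68.9%, 68.6%, 70.9% and 70.5% in the same order, and *Rarb* stayed at or below 0.272%.

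**Figure D2:**
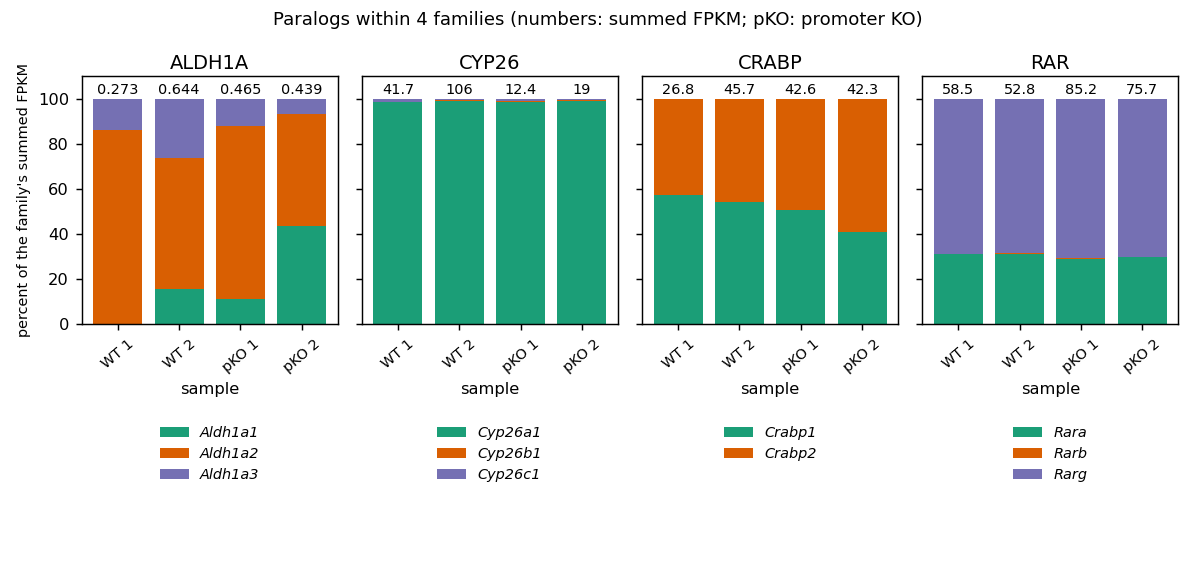
Percent of each family's summed FPKM held by each paralog in each sample (stacked bars, starting at 0), with the summed FPKM above each bar. *Cyp26a1* held at least 98.3% of the CYP26 sum in every sample while that sum was 41.7 and 106 FPKM in WT against 12.4 and 19.0 FPKM in promoter KO. *Rarg* held between 68.6% and 70.9% of the RAR sum.

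The wider pathway was taken from 51 further genes in 8 lists, of which 28 passed the filter. At an adjusted p under 0.05 in limma with Benjamini-Hochberg adjustment, 1 was higher in promoter KO (*Ttr*) and 0 were lower, against 1.68% and 1.89% of all tested genes. At an unadjusted p under 0.05, 5 were higher and 9 lower, against 15.0% and 15.6% of all tested genes, and the difference from these shares was not tested. The median log2 fold change of the 28 genes was −0.11, and that of all tested genes was 0.00417. *Ttr*, which encodes the serum carrier of thyroxine and of retinol-binding protein, rose from 2.18 and 0.996 FPKM in the WT samples to 8.14 and 6.32 FPKM in the promoter KO samples. Its log2 fold change was 1.70 (limma with Benjamini-Hochberg adjustment, adjusted p = 0.0389, standard error 0.25). *Ttr* is also a marker of visceral endoderm, whose levels are given below. Without WT 2, without promoter KO 1 or without the filter on low values, no gene was called, *Ttr* included.

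Other carriers of retinol and retinoic acid did not follow *Ttr*. *Rbp4*, which encodes the retinol-binding protein of serum, was at 3.66 and 4.44 FPKM in WT and at 2.45 and 2.80 FPKM in promoter KO, for a log2 fold change of −0.47. *Rbp2*, the intestinal form, was listed at 0 in every sample. *Fabp5*, which also binds retinoic acid, was at 59.4 and 74.5 FPKM in WT and at 50.3 and 51.3 FPKM in promoter KO, for a log2 fold change of −0.38, and 2 near-identical annotated copies may share its reads.

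Of 14 further oxidoreductases of retinol and retinaldehyde, 7 were tested. *Rdh11* was at 44.0 and 44.3 FPKM in WT and at 36.3 and 35.2 FPKM in promoter KO, for a log2 fold change of −0.30. *Adh5*, the most abundant of the list and better known for clearing formaldehyde, was at 210.3 and 206 FPKM in WT and at 196 and 206 FPKM in promoter KO, for a log2 fold change of −0.05. *Dhrs9* was listed at 0 in every sample.

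The RXR genes lay on the opposite side from *Rara* and *Rarg*. *Rxrb*, the most abundant RXR gene, was at 59.4 and 61.4 FPKM in WT and at 49.8 and 47.3 FPKM in promoter KO, for a log2 fold change of −0.31 (limma with Benjamini-Hochberg adjustment, adjusted p = 0.0783). *Rxra* was at 10.7 FPKM in WT 1 and WT 2 and at 7.68 and 8.71 FPKM in promoter KO, for a log2 fold change of −0.35. *Rxrg* was at 7.21 and 7.17 FPKM in WT and at 5.84 and 4.54 FPKM in promoter KO, for a log2 fold change of −0.41. In limma with Benjamini-Hochberg adjustment the adjusted p was 0.125 for *Rxra* and 0.136 for *Rxrg*. In the RXR genes both promoter KO samples were below both WT samples, as in 32.4% of all tested genes. In *Rara* and *Rarg* both were above, as in 32.9% of all tested genes, and *Rarb*, near the limit of detection, lay below WT in both. The difference between the RAR and RXR genes was not tested. Of 6 cofactors of these receptors, *Ncor1*, a corepressor gene, was at 18.7 and 16.1 FPKM in WT and at 25.6 and 21.9 FPKM in promoter KO, for a log2 fold change of 0.43. The coactivator gene *Ncoa3* was at 10.2 and 9.92 FPKM in WT and at 17.5 and 12.6 FPKM in promoter KO, for a log2 fold change of 0.52.

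Of 13 genes known to be induced by retinoic acid in other settings, 5 were tested. *Meis2*, a homeobox gene, was at 1.80 and 4.37 FPKM in WT and at 0.905 and 0.936 FPKM in promoter KO, for a log2 fold change of −1.01 (limma with Benjamini-Hochberg adjustment, adjusted p = 0.0974). *Foxa1* was at 2.61 and 1.62 FPKM in WT and at 0.982 and 1.19 FPKM in promoter KO, for a log2 fold change of −0.56. *Cdx1*, the most abundant of the list on average, was at 2.47 and 5.07 FPKM in WT and at 2.31 and 1.46 FPKM in promoter KO, for a log2 fold change of −0.69. *Hoxb1*, singled out after its values were seen, was high in WT 2 alone, at 7.19 FPKM against 0.929 FPKM in WT 1, with promoter KO at 0.985 and 0.904 FPKM. WT 2 was also the highest sample for *Cyp26a1*, *Meis2* and *Cdx1*.

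**Figure D3:**
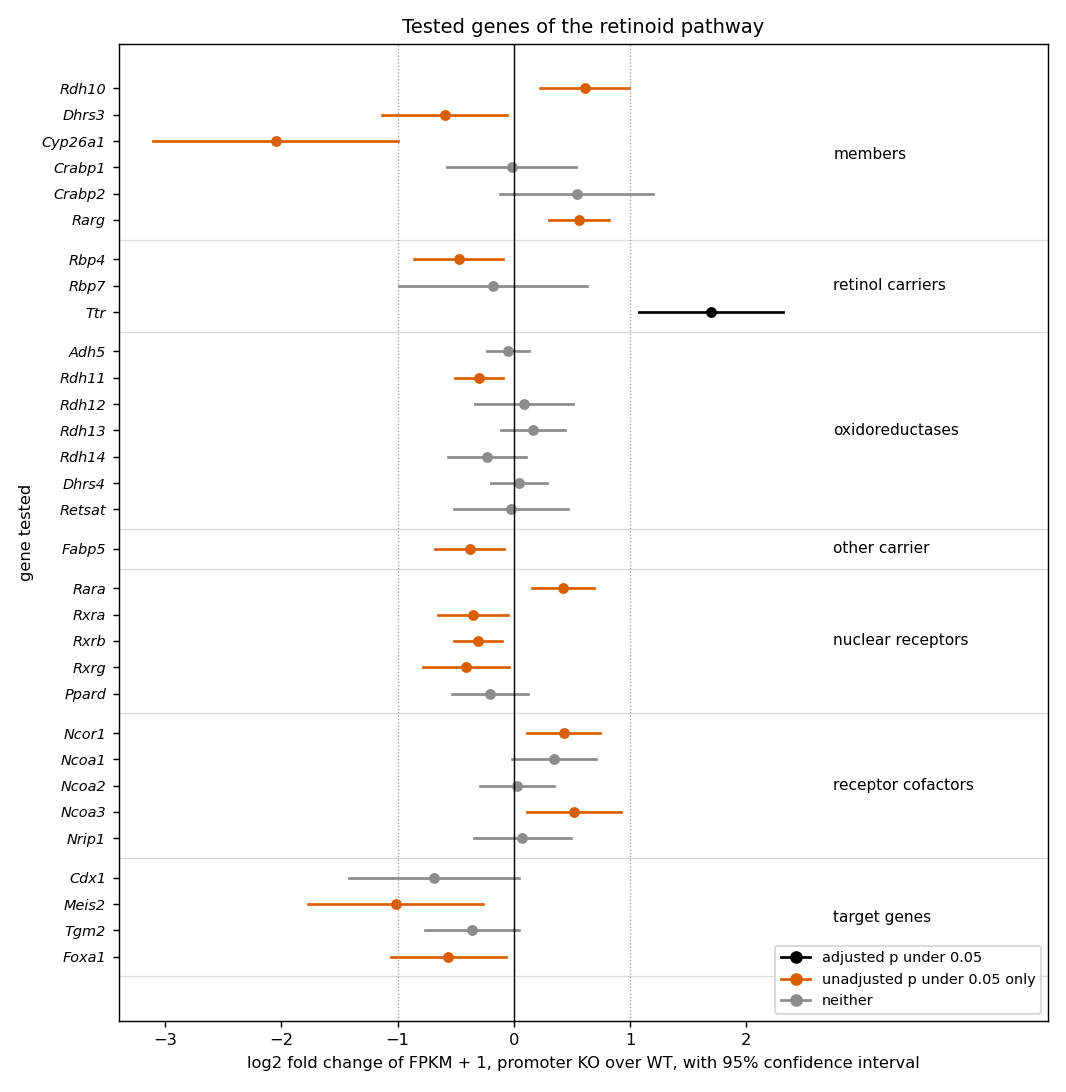
Log2 fold change of FPKM + 1, promoter KO over WT, with 95% confidence intervals from limma, for the 6 tested genes at the top and, by role, the further tested pathway genes used here. Black marks an adjusted p under 0.05, orange an unadjusted p under 0.05 only and grey neither, and dotted lines stand at −1 and 1. *Cyp26a1*, at −2.05, had the largest difference in size and *Ttr*, at 1.70, was the only gene in black.

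The cell type label of the samples, mesendoderm cells derived from ES cells, was set against marker genes, because fewer cells of a type and less RNA per cell cannot be told apart in bulk samples. Of 9 markers of mesendoderm and streak, 9 were tested and 6 were lower in promoter KO at an adjusted p under 0.05 in limma with Benjamini-Hochberg adjustment (*Mixl1*, *Gsc*, *Evx1*, *Lhx1*, *Mesp1* and *Gata6*). Their summed FPKM was 790.1 in WT 1 and 1024 in WT 2, with promoter KO 1 at 152 and promoter KO 2 at 319.6, none was listed at 0, and *T* was the most abundant on average, at 306 and 448 FPKM in WT and at 50.5 and 127 FPKM in promoter KO. Without WT 2, without promoter KO 1 or without the filter, none of these markers was called. The samples fall in the same order for this sum and for *Cyp26a1*, with promoter KO 1 lowest, then promoter KO 2, WT 1 and WT 2. Whether the level of these cells has a part in the values of *Cyp26a1* was not tested.

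Most tested markers of visceral and parietal endoderm were called higher in promoter KO, and those of the remaining cell types were mixed. Of 12 visceral endoderm markers, 10 were tested and 6 were called higher at an adjusted p under 0.05 in limma with Benjamini-Hochberg adjustment (*Ttr*, *Amn*, *Cubn*, *Dab2*, *Sox7* and *Rhox5*). Their summed FPKM was 36.7 and 45.0 in WT and 144 and 113 in promoter KO, with *Rhox5* the most abundant on average. The samples overlapped in *Gata4* and *Apoa1* of this list and in *Thbd* and *Nid1* of the next, all named after their values were seen. Of 9 parietal endoderm markers, 8 were tested and 6 were called higher (*Lama1*, *Lamc1*, *Col4a1*, *Col4a2*, *Sparc* and *Srgn*), with a summed FPKM of 132 and 155 in WT and 299 and 369 in promoter KO and *Sparc* the most abundant. Of 10 markers of undifferentiated ES cells, 10 were tested and *Utf1* was called higher, with sums of 1951 and 1705 FPKM in WT against 2628 and 2370 FPKM in promoter KO, and *Pou5f1* was the most abundant. Of these 10 markers 8 had a positive log2 fold change and 2 a negative one, among them *Nanog*, named after its values were seen, at 139.9 and 113 FPKM in WT and at 94.1 and 98.7 FPKM in promoter KO. Of 6 epiblast markers, 6 were tested and *Pou3f1* was called higher, with sums of 688 and 500.4 FPKM in WT against 728 and 762 FPKM in promoter KO, and *Dnmt3b* was the most abundant. Of 8 neuroectoderm markers, 2 were tested and *Tubb3*, the most abundant on average, was called higher, while the sums were 37.2 and 37.5 FPKM in WT against 33.1 and 43.9 FPKM in promoter KO. The other tested neuroectoderm marker, *Nes*, named after its values were seen, lay the other way, at 21.6 and 24.5 FPKM in WT and at 6.94 and 14.7 FPKM in promoter KO, for a log2 fold change of −1.10. It exceeded *Tubb3* in both WT samples. *Sox1* and *Pax6*, also named after their values were seen, were below 1 FPKM in every sample and higher in both promoter KO samples than in WT. These calls, too, were absent without WT 2, without promoter KO 1 or without the filter. No marker in these lists was listed at 0 in every sample. *Rarg*, *Rdh10*, *Crabp2*, *Stra6*, *Rara* and *Ttr* were among the retinoid genes that were also higher in both promoter KO samples. The part of these cells in their values was not tested.

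**Figure D4:**
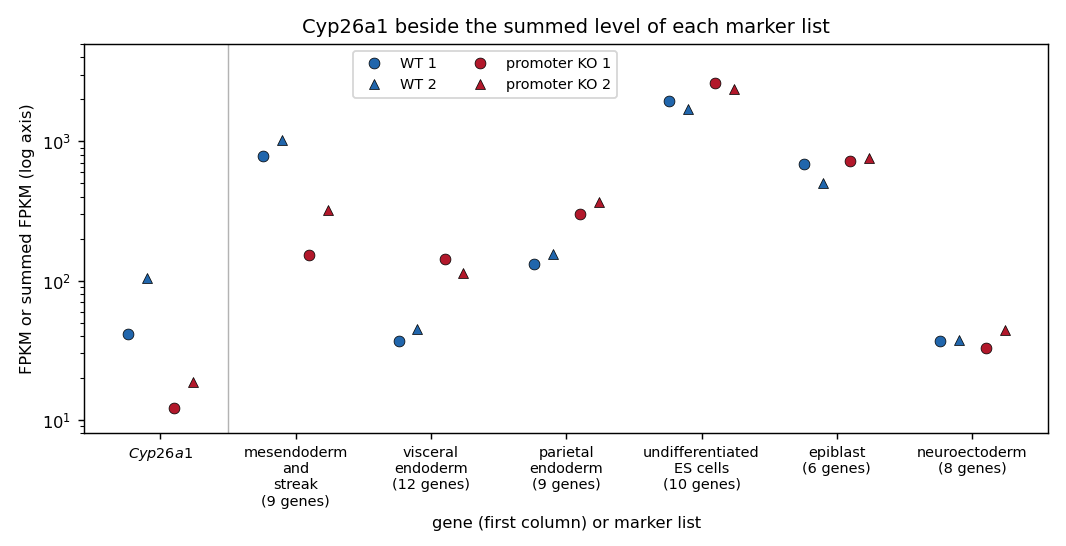
FPKM of *Cyp26a1* and summed FPKM of each marker list in each sample (log axis), with WT in blue and promoter KO in red. The mesendoderm and streak sum lay at 790.1 and 1024 FPKM in WT and at 152 and 319.6 FPKM in promoter KO, and the visceral and parietal endoderm sums lay above WT in both promoter KO samples.

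None of the 9 genes has a near-identical annotated copy. In limma with Benjamini-Hochberg adjustment, 226 genes were lower and 201 higher in promoter KO among all 11941 tested, and the 0 calls without WT 2, without promoter KO 1 or without the filter stood beside 1875, 2009 and 4059 genes at an unadjusted p under 0.05.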

How the data were processed

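RNA-seq values of 4 samples were used, grouped by the genotype in the labels. The values deposited by the authors were taken as FPKM, 1 file per sample. The methods name FastQC, TopHat, Cufflinks and Cuffdiff with GENCODE M4 on mm10, whereas the submitters' processing notes name HISAT2 2.1.0, Cufflinks and Cuffnorm. The values are thus scaled to library size and transcript length, and read counts were not used here.

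log2(FPKM + 1) was fitted for genotype with limma 3.58.1 in R 4.3.3 (lmFit, eBayes with an intensity trend), without further scaling, after a filter of 1 FPKM in 2 samples. The Benjamini-Hochberg adjustment ran over 11941 genes, with a threshold of 0.05, and the fit was tested on simulated data. Alternatives were the replicate block, a pseudocount of 0.1, no filter, a mean of at least 5 FPKM, no trend, robust variance estimates, median centring, quantile normalization, each sample left out in turn, the log2 ratio of mean FPKM and a fold of 1.5.

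The genes and lists were chosen with earlier results of these data known. Named are the 9 genes, *Gm11549*, from each pathway list the most abundant gene and those with an unadjusted p under 0.05, from each marker list the most abundant gene, those at 0 in every sample and those with an adjusted p under 0.05, and the 3 tested genes nearest to each of the 2 tested genes with the largest fold changes. Some genes that meet this rule are not used here. Depth was estimated from 5671 genes with 1 annotated transcript, in which values pile up at those of 1, 2 and 3 fragments, with the fragment length (240 bases) at which the piles were sharpest, so that fragment numbers are estimates. This rule replaced an earlier one after its estimate for promoter KO 2 had been seen. Positions and transcript lengths came from GENCODE M21 (GRCm38) and promoters from RefSeq (GRCm38.p6). Near-identical copies had at least 95% identity over 200 bases (BLAST 2.17.0). Python 3.11.15, numpy 2.4.6, pandas 2.3.3 and matplotlib 3.10.9 were used.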

Additional observations from a re-analysis of the deposited data

How the results depend on the processing

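In limma with Benjamini-Hochberg adjustment, 0 of the 6 tested genes were called lower and 0 higher, against 1.89% and 1.68% of all tested genes. At an unadjusted p under 0.05 there were 4 of the 6, beside 3649 of all 11941 tested genes, and 6 genes are too few for a comparison. The log2 fold changes of *Cyp26a1* (−2.72 to −1.38), *Rarg* (0.47 to 0.65), *Rdh10* (0.45 to 0.77), *Dhrs3* (−0.82 to −0.37) and *Crabp2* (0.13 to 0.96) kept their sign under 12 alternative fits. That of *Crabp1* was −0.02 and turned to 0.0124 with median centring, 0.30 without WT 2 and 0.13 without promoter KO 2, and was −0.34 without WT 1, with no call in any fit, and the cause was not tested. In every fit to all samples *Cyp26a1* passed the volcano plot's thresholds. With a fold of 1.5 in place of 2 the count was 3, with *Dhrs3* and *Rdh10* besides. The share of all tested genes past a fold of 1.5 was not counted.

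With the replicate block, 1 gene was called lower (*Cyp26a1*, adjusted p = 0.00920 in limma with Benjamini-Hochberg adjustment) and 1 higher (*Rarg*, adjusted p = 0.0257), and over all genes 667 were lower and 535 higher, against 226 and 201 without it. The samples share only a number. Around the mean of each genotype, WT and promoter KO samples with equal numbers varied together with a correlation of 0.0348 across genes. With robust variance estimates 1 gene was called higher (*Rarg*). Leaving out 1 sample, the genes called lower numbered 0 to 1 (*Cyp26a1*, without WT 1), and over all genes 0 to 248 were lower and 0 to 238 higher. Over all genes, 0 were lower and 0 higher without the filter on low values (18215 genes, 4059 at an unadjusted p under 0.05), 108 and 95 at a mean of at least 5 FPKM, where fewer genes were tested (8562), 27 and 55 without the trend, and 126 and 157 with median centring. The cause of these changes was otherwise not tested. Without a pseudocount, the log2 ratio of mean FPKM was 1.06 for *Stra6* and −0.70 for *Rarb*, against differences of 0.41 and −0.06 with it. A pseudocount of 1 FPKM weighs heavily on values this low. In *Rarb*, at about 3.05 to 9.27 fragments, 1 fragment more or less also moves the ratio. Small differences in *Aldh1a2*, *Rarb* and *Stra6* were not detectable.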
